A study of Homo sapiens with 18 samples.

Results

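The acute response to interferon gamma (IFNγ) was measured in RKO-iCas9 cells that carried a control guide. RKO cells come from a carcinoma of the human colon, and the iCas9 derivative holds a Cas9 nuclease that doxycycline switches on. The libraries were chosen by their labels: 3 libraries of sgAAVS1 cells treated with 25 ng/mL IFNγ for 4 hours (sgAAVS1_IFNγ, replicates 1 to 3) and 2 libraries of non-treated sgAAVS1 cells that received water for the same time (sgAAVS1_NT, replicates 2 and 3), together 5 of the 18 libraries of the series. The sgAAVS1 guide cuts the AAVS1 safe-harbour locus, so the control cells also carried an active nuclease and a cut. In every group Cas9 had been induced by 5 days of doxycycline at 100 ng/mL, and guide-carrying cells had been sorted by flow cytometry. Other libraries were used as a comparison: sgERH cells, which carry a guide against ERH, with IFNγ (2 libraries) or non-treated (3 libraries), and sgAAVS1 cells treated with 10 ng/mL interleukin 1 beta (IL-1β) for 4 hours (2 libraries). The sgERH cells treated with 10 ng/mL IL-1β for 4 hours (3 libraries) were not compared with any group. They entered the shared model of 6 groups, which sets the spread behind each p-value. Transcript 3′ ends were sequenced, so each molecule gives reads near its polyadenylation site and levels are given as CPM (reads scaled to a common library size by TMM) without division by gene length. The cells are a pool of 1 line under 1 dose and 1 time. The sources describe the libraries as biological replicates without saying whether they came from separate cultures. The p-values therefore measure the spread between these libraries. In bulk libraries, fewer responding cells and less RNA per cell cannot be told apart.

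The 5 libraries held 4987127 to 5652257 reads with IFNγ and 5208488 and 5986338 reads in NT libraries, with 16316 to 16805 gene symbols detected with IFNγ and 16001 and 16099 in NT libraries. The study left out sgAAVS1_NT replicate 1 as an outlier. That library held 3811492 reads and 14111 detected symbols, and its counts stood far from those of the other NT libraries, with a chi-square of 103 and 108 for each degree of freedom, against 3.44 between NT replicates 2 and 3. It was kept out here, and its effect is given beside the counts. Of 12 colon epithelium markers 4 were expressed enough to be tested (EPCAM, KRT8, KRT18 and CDX2) and 6 had no read, with a summed level of 133 to 144 CPM with IFNγ and 148 to 157 CPM in NT libraries. No read was found for 11 of 14 leukocyte markers and 8 of 11 fibroblast and endothelial markers. The summed level of the leukocyte list was 410.4 to 443 CPM with IFNγ, against 425 to 469 CPM in NT libraries, of which CD68, the 1 leukocyte marker that was tested, made up 410.4 to 443 CPM with IFNγ and 424 and 468 CPM in NT libraries. The summed level of the fibroblast and endothelial list was 3.89 to 6.86 CPM with IFNγ, against 8.19 to 8.70 CPM in NT libraries. The part of other cell types in the results was not tested.

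IFNγ is a cytokine made mainly by T cells and natural killer cells. It binds a receptor of IFNGR1 and IFNGR2 chains, the receptor-bound kinases JAK1 and JAK2 activate STAT proteins, and STAT dimers bind gamma-activated sites (GAS) in the DNA of target genes. One of the first targets is IRF1, a transcription factor that binds interferon-stimulated response elements (ISRE), so that early STAT targets and later IRF targets follow each other. In epithelial and tumour cells the pathway is best known for raising antigen presentation, guanylate-binding proteins and inhibitory ligands such as PD-L1.

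To show the letters behind these names, stretches of the promoter windows of 10 genes that rose are printed, chosen because each holds a match to GAS (letters TTCNNNGAA) or to the ISRE core (letters GAAANNGAA, searched on both strands). The windows are from RefSeq on GRCh38.p14 and run from 250 bases before to 50 bases after the annotated start of a gene. Each stretch is written 5′ to 3′ on the strand of its gene with 12 flanking bases, and capitals mark the matches.
IRF1, chr5:132490877-132490909, minus strand, GAS: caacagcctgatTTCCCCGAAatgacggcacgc
ICAM1, chr19:10271033-10271065, plus strand, GAS: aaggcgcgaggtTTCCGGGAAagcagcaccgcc
IRF9, chr14:24161190-24161222, plus strand, GAS: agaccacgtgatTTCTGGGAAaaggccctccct
SOCS1, chr16:11256297-11256329, minus strand, ISRE core: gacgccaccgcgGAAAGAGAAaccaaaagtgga
DTX3L, chr3:122564320-122564352, plus strand, ISRE core: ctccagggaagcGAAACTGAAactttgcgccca
IFIT3, chr10:89327830-89327896, plus strand, ISRE cores: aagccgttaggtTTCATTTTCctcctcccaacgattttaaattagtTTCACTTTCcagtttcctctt
IFIT5, chr10:89414512-89414585, plus strand, ISRE cores: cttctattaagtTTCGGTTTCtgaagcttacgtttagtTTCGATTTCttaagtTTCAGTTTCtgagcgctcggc
TAP1, chr6:32853811-32853849, minus strand, overlapping ISRE cores: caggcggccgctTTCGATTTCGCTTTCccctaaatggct
GBP3, chr1:89022843-89022893, minus strand, GAS and ISRE core: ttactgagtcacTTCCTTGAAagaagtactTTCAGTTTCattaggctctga
PARP14, chr3:122680787-122680830, plus strand, GAS and ISRE core: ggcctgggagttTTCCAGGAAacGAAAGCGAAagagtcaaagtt
A match is a description of the letters and not a binding site, and its occurrence in other promoters is given with the promoter counts.

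IFNγ raised 80 gene symbols and lowered none. IRF1, ICAM1, NLRC5, APOL2 and GBP3 were among the strongly expressed genes with the highest folds, and BATF2, APOL6, ETV7 and SOCS1 were read only in cells with IFNγ when the 5 libraries were compared. A gene was said to have risen or fallen where edgeR's quasi-likelihood test gave a Benjamini-Hochberg adjusted p of at most 0.05 and a log2 fold change of at least 1 in size. By that rule 80 of 13370 tested symbols rose (0.598%) and 0 fell. At the adjusted p alone 126 were higher (0.942%) and 5 lower. At an unadjusted p under 0.05 there were 750 higher and 503 lower, and DESeq2 called 97 risen and 0 fallen. The 80 symbols stand for 79 genes, since WARS and WARS1 are an older and a current symbol of the same gene.

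The risen genes took 0.453 to 0.475% of all reads with IFNγ, against 0.112 to 0.116% in NT libraries. Their median log2 fold change was 1.71, against -0.02 over all tested symbols, a contrast the rule itself fixed. With IFNγ 14 of them reached a mean of 100 CPM and 21 stayed under 10 CPM. A log2 fold change of at least 2 was found for 34, and 31 lay under 1.5. Leaving out 1 of the 5 libraries at a time, 37 of the 80 remained called in all 5 fits, with 51 remaining without sgAAVS1_NT replicate 2 and 50 without sgAAVS1_NT replicate 3. With sgAAVS1_NT replicate 1 added back, 43 of the 80 remained called, and 45 symbols rose in all. Among those lost with it were HELZ2, PML, UBE2L6, ERAP2, SP140L, ZC3HAV1, TRIM56, WARS and WARS1. Losses named gene by gene below are mostly those of left-out libraries.

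**Figure D1:**
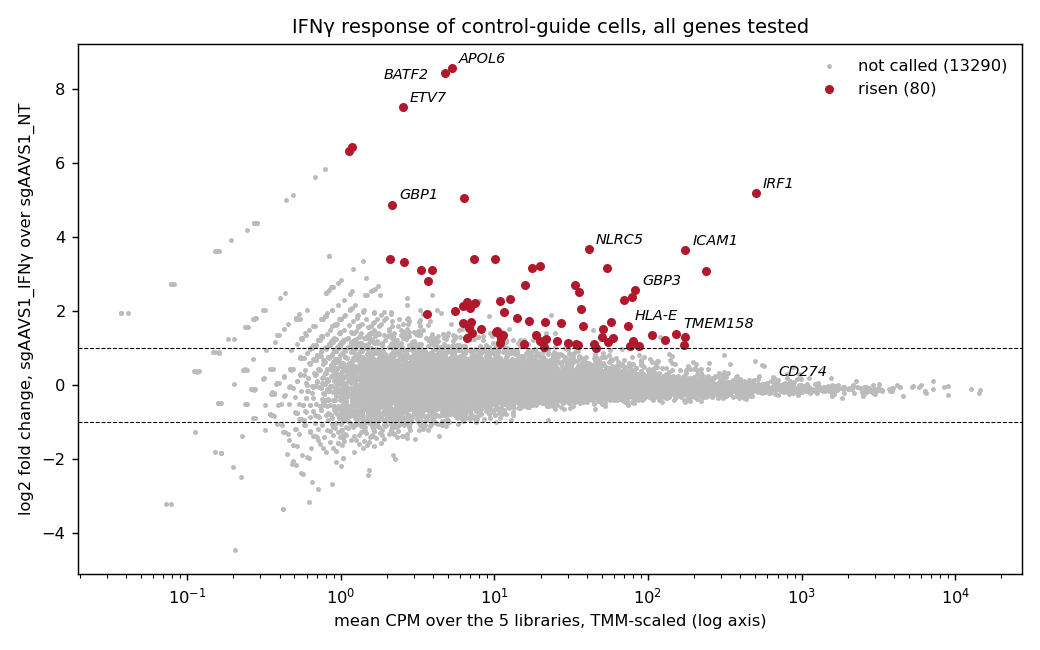
Each point is 1 tested symbol, with its mean level over the 5 libraries on the x axis (CPM, log axis) and its log2 fold change with IFNγ over NT in sgAAVS1 cells on the y axis. The 80 risen symbols are coloured and the rest of the 13370 tested symbols are grey, with no symbol called below 0.

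**Figure D2:**
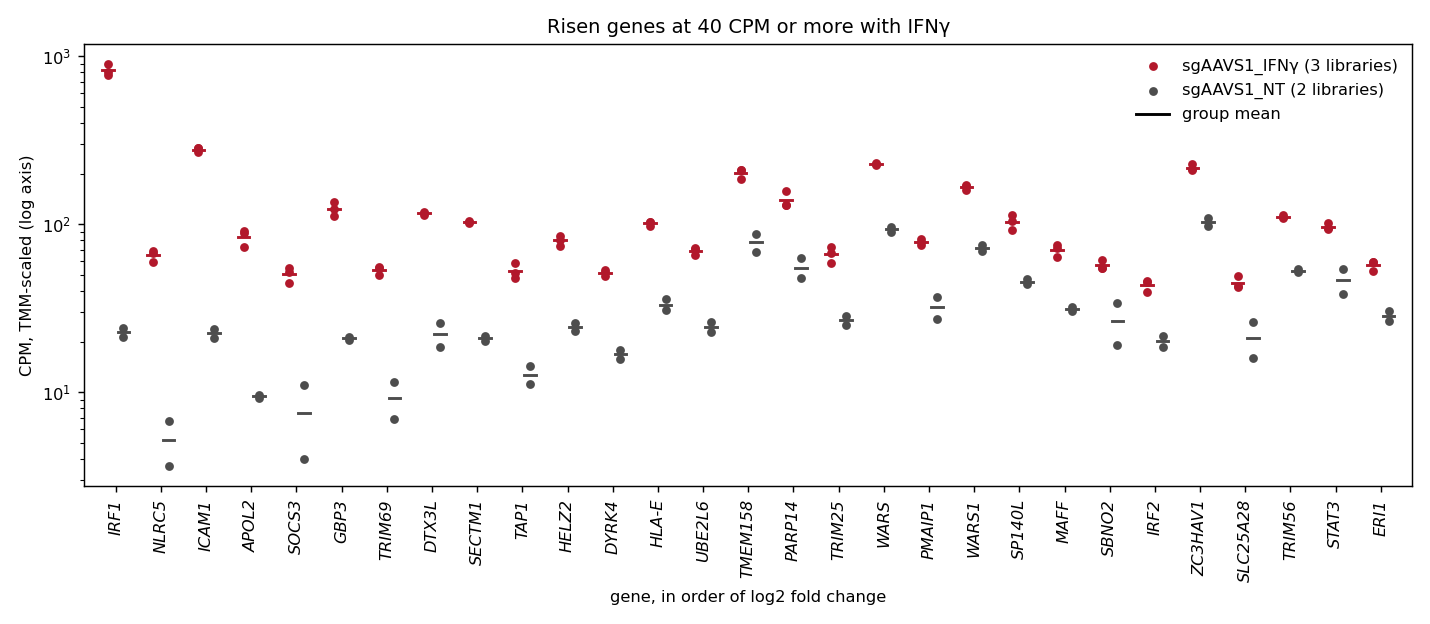
Level of 29 risen symbols with a mean of at least 40 CPM with IFNγ, in CPM on a log axis, with 1 point for each sgAAVS1_IFNγ and sgAAVS1_NT library. IRF1 reached 897 CPM with IFNγ and had no more than 24.1 CPM in NT libraries.

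Among the 10 genes of the receptor, its kinases and the STATs, 2 rose and 0 fell. STAT3, which transduces interleukin 6 family signals, had 101, 95.0 and 93.2 CPM with IFNγ, against 54.2 and 38.4 CPM in NT libraries (log2 fold change 1.06 ± 0.15, SE, adjusted p = 2.99e-05). It lies just above the fold threshold, and without sgAAVS1_NT replicate 3 its fold was 0.84 and the call was lost. STAT2, a partner of IRF9 in the type I interferon complex ISGF3, had 34.1, 27.2 and 28.7 CPM with IFNγ, against 18.1 and 14.3 CPM in NT libraries. It passed the adjusted p (0.0106) but not the fold (0.89 ± 0.19), and passed both without sgAAVS1_NT replicate 2 (1.07).

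The receptor chains and kinases did not pass the test. IFNGR1 had 7.90, 7.09 and 4.30 CPM with IFNγ, against 2.73 and 4.17 CPM in NT libraries, which did not overlap but whose fold was not called (0.88 ± 0.44, adjusted p = 0.543). IFNGR2 had 33.9, 33.4 and 41.0 CPM, against 35.9 and 41.7 CPM in NT libraries, JAK1 differed by 0.07 ± 0.12 and JAK2 by -0.14 ± 0.17 on the log2 scale. JAK2 was at -1.01 with sgAAVS1_NT replicate 1 added back and at -1.02 with all 18 libraries, and was called in neither. Both receptor chains and both kinases were thus read in NT cells. Over the list the median log2 fold change was 0.09, with 4 of 10 genes higher in every IFNγ library than in both NT libraries, against 13.9% of all tested symbols.

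Of the 13 tested brakes on JAK and STAT signalling, SOCS1 and SOCS3 rose, 0 fell, and the median log2 fold change was 0.05. SOCS3, which blocks receptor-bound JAK kinases, had 54.6, 44.8 and 52.0 CPM with IFNγ, against 3.99 and 11.1 CPM in NT libraries. The fold of 2.71 ± 0.49 (adjusted p = 0.0189) was not called without sgAAVS1_NT replicate 2 (2.19), sgAAVS1_IFNγ replicate 1 (2.65) or sgAAVS1_IFNγ replicate 3 (2.69). SOCS1, the main inhibitor of JAK kinases at the IFNγ receptor, had 2.49, 2.24 and 1.23 CPM with IFNγ and no read in either NT library. Set against the limit that 0 reads allow (3 reads over both NT libraries, 0.292 CPM), SOCS1 was at least 6.83-fold higher with IFNγ. In sgERH cells without cytokine it was at 2.44, 2.70 and 1.53 CPM, so the 0 of the sgAAVS1_NT libraries was not found in other non-treated libraries. Its call was lost without sgAAVS1_IFNγ replicate 1 or either NT library, at fitted folds of 6.25 and 6.43 that are no bounds. The phosphatases PTPN1 (-0.09 ± 0.10) and PTPN2 (0.05 ± 0.14) and the deubiquitinase-like regulator USP18 (-0.65 ± 0.48) were not called.

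Transcription factors and nuclear regulators of the interferon response were the list with the most risen genes, 11 of 21 tested, with 0 fallen and a median log2 fold change of 1.11. IRF1 (chromosome 5, 132440440 to 132508719) had 897, 773 and 805 CPM with IFNγ, against 24.1 and 21.4 CPM in NT libraries. That is a log2 fold change of 5.18 ± 0.14 or 36.3-fold (adjusted p = 1.48e-20), and IRF1 was the most abundant of the risen genes. IRF9, the DNA-binding subunit of ISGF3, had 29.9, 26.5 and 25.8 CPM with IFNγ, against 3.99 and 2.18 CPM in NT libraries (3.16 ± 0.33). IRF2, an antagonist of IRF1, had 39.5, 45.0 and 45.9 CPM with IFNγ, against 21.6 and 18.7 CPM in NT libraries (1.11 ± 0.18), and its fold of 1.01 without sgAAVS1_NT replicate 3 was not called.

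NLRC5 and BATF2 stand out in that list for fold. NLRC5, the transactivator of MHC class I genes, had 59.8, 68.9 and 67.2 CPM with IFNγ, against 6.72 and 3.63 CPM in NT libraries (3.67 ± 0.26, adjusted p = 7.16e-11). BATF2, a basic leucine zipper factor that pairs with IRF1 in macrophages, had 6.86, 9.15 and 7.99 CPM with IFNγ and no read in NT libraries, so that it was at least 27.5-fold higher. ETV7, an ETS family repressor, had 3.32, 5.23 and 4.10 CPM with IFNγ and no read in NT libraries, which makes it at least 14.6-fold higher. The call of ETV7 was lost without either NT library, at a fitted log2 fold of 7.51 that is no bound. It was also lost with all 18 libraries and with sgAAVS1_NT replicate 1 added back. Over all alternatives the lowest log2 fold of ETV7 was 5.40.

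The other members that rose were the nuclear body proteins PML (1.67 ± 0.23), SP110 (1.25 ± 0.23) and SP140L (1.18 ± 0.13) and the interacting pair NMI (1.82 ± 0.34) and IFI35 (1.51 ± 0.32). SP140L was the most abundant of them, with 92.0, 113 and 105 CPM with IFNγ, against 43.9 and 47.1 CPM in NT libraries. SP100, the founding nuclear body antigen, was higher at the adjusted p (0.00679) but under the fold threshold (0.58 ± 0.12). CIITA, the master regulator of MHC class II, had 0.416, 1.12 and 0.410 CPM with IFNγ, against 0.840 and 2.54 CPM in NT libraries, and was not called. IRF3 (0.23 ± 0.18) and IRF7 (0.38 ± 0.60) were not called. Without sgAAVS1_NT replicate 2 the calls of NMI (1.52) and IFI35 (1.41) were lost, and without sgAAVS1_NT replicate 3 those of SP110 (1.15) and IFI35 (1.64).

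Guanylate-binding proteins, large GTPases that attack pathogen vacuoles, and the apolipoprotein L family rose together: 5 of 6 tested, with a median log2 fold change of 3.24. Of the 13 genes listed 7 were not tested, and 3 of the 13 had no read in the 5 libraries. The count filter asks for reads in some libraries only. A rise with IFNγ can thus itself bring a low gene into the tested set, here and in the other lists. All 6 were higher in every IFNγ library than in both NT libraries, against 13.9% of all tested symbols. GBP3 had 135, 124 and 112 CPM with IFNγ, against 20.4 and 21.4 CPM in NT libraries (2.56 ± 0.16, adjusted p = 4.77e-12). GBP1, the member usually used as a marker of IFNγ, was far lower, with 3.95, 3.36 and 3.28 CPM with IFNγ, against 0.210 and 0 CPM in NT libraries. With only 1 NT read the ratio was 36.2 with a 95% counting interval of 6.22 to 1456. The call of GBP1 was lost without sgAAVS1_NT replicate 2 (a fitted 7.25 that is no bound) and without sgAAVS1_NT replicate 3 (3.93). It was also lost with DESeq2 and with all 18 libraries. GBP2 had 1.66, 4.11 and 1.02 CPM with IFNγ, against 0 and 0.544 CPM in NT libraries, and was not called (adjusted p = 0.220).

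APOL2 had 73.6, 90.5 and 89.1 CPM with IFNγ, against 9.66 and 9.25 CPM in NT libraries (3.16 ± 0.19). APOL6, which carries a BH3-like domain, had 8.73, 6.53 and 11.3 CPM with IFNγ and no read in NT libraries, and was at least 30.04-fold higher. APOL1, the serum trypanolytic factor, had 2.91, 5.41 and 3.89 CPM with IFNγ, against 0.210 and 0.544 CPM in NT libraries (3.32 ± 0.77, adjusted p = 0.0224). Reads that also map elsewhere made up 43.9% of those of APOL1, its call was lost with uniquely mapping reads (3.43) and it was lost without either NT library (2.86 without replicate 2 and 4.14 without replicate 3). It was also lost without sgAAVS1_IFNγ replicate 2 (3.06) or replicate 3 (3.36).

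The interferon-linked ADP-ribosyltransferases and DTX3L gave 4 risen of 7 tested and a median log2 fold change of 1.08. DTX3L, an E3 ubiquitin ligase that works as a complex with PARP9, had 119, 114 and 116 CPM with IFNγ, against 18.7 and 25.9 CPM in NT libraries (2.37 ± 0.16). PARP9 had 23.1, 37.7 and 32.4 CPM with IFNγ, against 3.36 and 3.26 CPM in NT libraries (3.22 ± 0.37). The 2 genes lie head to head on chromosome 3 and overlap by 239 bases at their 5′ ends. Reads were summed in 3′ end windows, and the annotated 3′ ends lie apart, at 122527924 for PARP9 and 122575203 for DTX3L. The sources used here do not state whether counting used strand. PARP14 had 131, 157 and 129.8 CPM with IFNγ, against 62.6 and 47.9 CPM in NT libraries (1.34 ± 0.15). ZC3HAV1, the zinc finger antiviral protein also called PARP13, had 214, 209.8 and 228 CPM with IFNγ, against 97.2 and 108 CPM in NT libraries (1.08 ± 0.12).

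Antigen presentation by MHC class I was mixed. Of 21 tested genes 5 rose and 8 were higher at the adjusted p alone, with a median log2 fold change of 0.50. In 15 every IFNγ library was above both NT libraries, against 13.9% of all tested symbols. TAP1, a subunit of the peptide transporter, had 51.3, 47.8 and 59.0 CPM with IFNγ, against 11.1 and 14.3 CPM in NT libraries (2.04 ± 0.20). PSMB9, an immunoproteasome subunit, had 18.7, 15.1 and 16.2 CPM with IFNγ, against 1.89 and 6.35 CPM in NT libraries (1.98 ± 0.34), and the call was lost without sgAAVS1_NT replicate 2 (1.39). HLA-E, the nonclassical class I molecule read by natural killer cells, had 103, 97.2 and 103 CPM with IFNγ, against 30.7 and 35.7 CPM in NT libraries (1.61 ± 0.14). All reads of TAP1 and PSMB9 also map elsewhere, so their split between copies of the MHC region is uncertain.

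ERAP2, which trims peptides, rose by 1.71 ± 0.23 and TAPBPL, a peptide editor, by 1.70 ± 0.42, though the call of TAPBPL was lost without sgAAVS1_NT replicate 3 (1.01) or any IFNγ library (1.67 to 1.75). Of the class I heavy chains, HLA-B had 37.6, 36.8 and 35.6 CPM with IFNγ, against 26.0 and 30.8 CPM in NT libraries (0.36 ± 0.16), HLA-C differed by 0.25 ± 0.10 on the log2 scale, and neither was called. B2M, the shared light chain, had 973, 1023 and 1013 CPM with IFNγ, against 692 and 729 CPM in NT libraries, a log2 fold change of 0.50 ± 0.10 that passed the adjusted p (0.00952) and not the fold. PSMB10 (0.61 ± 0.14) and PSME2 (0.56 ± 0.13) were likewise higher at the adjusted p alone. HLA-B, HLA-C and B2M had too few uniquely mapping reads to be tested on those alone.

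MHC class II genes and the IFNγ-induced chemokines were almost unread in these cells. No read was found in the 5 libraries for 11 of 14 class II genes, and only IFI30, a lysosomal thiol reductase, could be tested (0.52 ± 0.12, adjusted p = 0.0198). Of the 9 chemokines listed, which include ligands of the receptor CXCR3, 8 had no read. The exception was CXCL16, with 66.9, 59.5 and 58.0 CPM with IFNγ, against 53.3 and 44.8 CPM in NT libraries, which was not called.

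Among surface ligands and cytokine genes 3 of 16 tested rose, with a median log2 fold change of 0.68. In 13 of 16 every IFNγ library was above both NT libraries, against 13.9% of all tested symbols. ICAM1, the adhesion ligand of leukocyte integrin LFA-1 (chromosome 19, 10271093 to 10286615), had 282, 283 and 267 CPM with IFNγ, against 23.7 and 21.0 CPM in NT libraries (3.63 ± 0.15, adjusted p = 6.91e-16). The checkpoint ligands on chromosome 9 differed. PDCD1LG2, which encodes PD-L2, had 27.8, 21.6 and 20.5 CPM with IFNγ, against 4.62 and 9.25 CPM in NT libraries (1.73 ± 0.31), and without sgAAVS1_NT replicate 2 its fold of 1.33 was not called. CD274, which encodes PD-L1, was high in all libraries, with 619.8, 664 and 665 CPM with IFNγ, against 612 and 599 CPM in NT libraries, and was not called (0.10 ± 0.09, adjusted p = 0.769). IL18BP, the decoy of interleukin 18, rose by 1.99 ± 0.43, and the call was lost without sgAAVS1_NT replicate 3 (1.52) or sgAAVS1_IFNγ replicate 3 (1.75). MICB, a ligand of the natural killer receptor NKG2D, was higher at the adjusted p alone (0.74 ± 0.17). Too few reads of MICB mapped uniquely for a test on those.

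**Figure D3:**
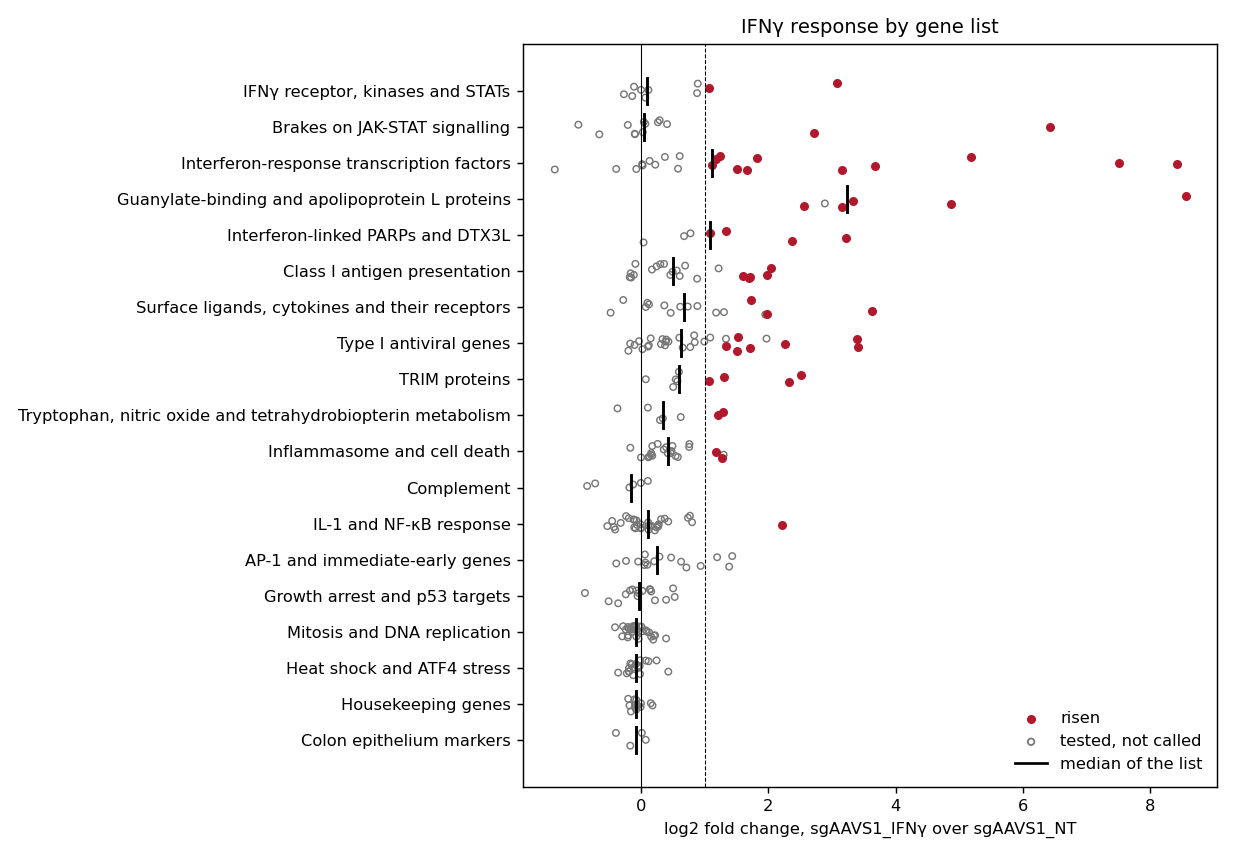
Log2 fold change with IFNγ over NT in sgAAVS1 cells for each tested gene of the 19 lists that had at least 4 tested genes, 1 point a gene. The median was 3.24 for guanylate-binding and apolipoprotein L genes and 1.11 for transcription factors, while mitosis genes had a median of -0.08.

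Antiviral genes better known from type I interferon responded in part, with 7 of 30 tested risen, 11 higher at the adjusted p alone and a median log2 fold change of 0.63. SAMD9L, a translation inhibitor, had 11.8, 10.5 and 12.5 CPM with IFNγ, against 1.05 and 1.09 CPM in NT libraries (3.41 ± 0.44). IFIT3, of the tetratricopeptide family that binds viral RNA, had 19.1, 12.5 and 15.6 CPM with IFNγ, against 1.89 and 1.09 CPM in NT libraries (3.40 ± 0.39). Its neighbour IFIT5 rose by 2.27 ± 0.37. HELZ2, an RNA helicase, had 85.4, 80.6 and 73.9 CPM with IFNγ, against 23.1 and 25.8 CPM in NT libraries (1.71 ± 0.18). UBE2L6, the ISG15-conjugating enzyme, had 70.9, 71.7 and 65.3 CPM with IFNγ, against 22.7 and 26.1 CPM in NT libraries (1.503 ± 0.20).

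The RNA sensor DDX58, also called RIG-I, rose by 1.53 ± 0.37 and PLSCR1 by 1.34 ± 0.27. Without sgAAVS1_NT replicate 2 the calls of DDX58 (1.21) and PLSCR1 (1.05) were lost, and that of DDX58 also without sgAAVS1_NT replicate 3 (1.99) or sgAAVS1_IFNγ replicate 1 (1.38) or 3 (1.48). MX1 (0.84 ± 0.18), OAS3 (0.77 ± 0.19), EIF2AK2 (0.60 ± 0.14) and ADAR (0.43 ± 0.11) were higher at the adjusted p and did not reach the fold. They are genes that type I interferon raises in many cell types.

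Of 9 tested TRIM family ubiquitin ligases 4 rose. In 8 every IFNγ library was above both NT libraries, against 13.9% of all tested symbols. TRIM69 had 55.3, 49.6 and 54.9 CPM with IFNγ, against 6.93 and 11.4 CPM in NT libraries (2.52 ± 0.24). It had too few uniquely mapping reads to be tested on those alone. TRIM21, the cytosolic antibody receptor, had 19.3, 14.7 and 21.5 CPM with IFNγ, against 3.36 and 3.99 CPM in NT libraries (2.32 ± 0.34). TRIM25 rose by 1.30 ± 0.17 and TRIM56 by 1.06 ± 0.13.

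In metabolism the tryptophan tRNA ligase rose. It is listed under both symbols, with 227, 226 and 233 CPM with IFNγ, against 89.4 and 96.8 CPM in NT libraries, under WARS (1.29 ± 0.12), and with 172, 169 and 160.2 CPM with IFNγ, against 69.3 and 75.6 CPM in NT libraries, under WARS1 (1.20 ± 0.14). No other of the 7 tested genes of tryptophan, nitric oxide and tetrahydrobiopterin metabolism rose. Of 23 inflammasome and cell death genes 2 rose. PMAIP1, which encodes the BH3 protein NOXA, had 81.2, 77.8 and 74.8 CPM with IFNγ, against 27.3 and 37.0 CPM in NT libraries (1.27 ± 0.16). IFI16, a DNA sensor, had 689.6, 605 and 615 CPM with IFNγ, against 439 and 434 CPM in NT libraries and was higher at the adjusted p alone (0.54 ± 0.10).

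Of the 80 risen symbols 32 were on none of the lists. ANXA2R had 20.8, 24.6 and 26.0 CPM with IFNγ, against 2.73 and 4.53 CPM in NT libraries (2.69 ± 0.29). SECTM1, a secreted and transmembrane ligand of CD7, had 101, 105 and 103 CPM with IFNγ, against 21.6 and 20.3 CPM in NT libraries (2.30 ± 0.19). ALPK1, the kinase that senses a bacterial sugar, rose by 2.09 ± 0.36, and DYRK4 had 53.2, 49.1 and 52.2 CPM with IFNγ, against 15.7 and 17.95 CPM in NT libraries (1.61 ± 0.24). TLR3, the endosomal sensor of double-stranded RNA, had 3.74, 4.11 and 2.05 CPM with IFNγ, against 0 and 0.544 CPM in NT libraries, a ratio of 11.4 with a counting interval of 3.68 to 57.0. In sgERH cells without cytokine TLR3 had 3.31, 1.80 and 1.53 CPM, and its call was lost without either NT library (2.56 without replicate 2, and a fitted 7.16 that is no bound without replicate 3) and without sgAAVS1_IFNγ replicate 1 (3.32) or replicate 2 (3.22).

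FBXO5, an inhibitor of the anaphase-promoting complex, had 11.2, 6.16 and 11.9 CPM with IFNγ, against 1.47 and 2.54 CPM in NT libraries (2.24 ± 0.43), and was not called without sgAAVS1_NT replicate 2 (1.93). TMEM158, a gene first found as a target of activated Ras, was among the most abundant, with 186, 211 and 211 CPM with IFNγ, against 87.3 and 68.5 CPM in NT libraries (1.38 ± 0.15). The butyrophilins BTN3A1, BTN3A2 and BTN3A3, which γδ T cells read, rose by 1.69 ± 0.38, 1.34 ± 0.26 and 1.38 ± 0.29. Without sgAAVS1_NT replicate 2 BTN3A1 (1.13) and BTN3A2 (1.03) were not called, and BTN3A3 was not called without sgAAVS1_NT replicate 3 (0.97) or with uniquely mapping reads (1.07, adjusted p = 0.579 by edgeR). Without sgAAVS1_IFNγ replicate 1 BTN3A1 (1.57) and BTN3A3 (1.29) were lost too, as was BTN3A1 without sgAAVS1_IFNγ replicate 3 (1.68).

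Noncoding and unplaced symbols were among the risen genes as well. PSMB8-AS1 had 8.93, 10.3 and 11.9 CPM with IFNγ, against 0.210 and 0.363 CPM in NT libraries, a ratio of 35.5 with a counting interval of 11.9 to 174. It overlaps PSMB9 and TAP1 on chromosome 6, and all of its reads also map elsewhere. C5orf56, now named CARINH, lies beside IRF1 and had 6.65, 4.48 and 5.73 CPM with IFNγ, against 1.05 and 0.544 CPM in NT libraries (2.81 ± 0.51). The pseudogene GBP1P1 rose by 3.10 ± 0.59, with all reads also mapping elsewhere, and AL136295.5 rose by 2.12 ± 0.46. Without sgAAVS1_NT replicate 3 the calls of C5orf56 (2.40), GBP1P1 (2.51) and AL136295.5 (1.62) were lost, as was that of AL136295.5 without sgAAVS1_IFNγ replicate 2 (2.04) or 3 (2.11).

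Some risen genes lay near each other. Of the 72 risen genes placed on GENCODE 44, with WARS and WARS1 taken as 1, 16 lay within 100000 bases of another risen gene, in 7 groups. GBP3 (chromosome 1, 89006679 to 89022894) and GBP1 (89051882 to 89065360) were 28988 bases apart, IFIT3 and IFIT5 on chromosome 10 were 37095 bases apart, and APOL2 and APOL1 on chromosome 22 were 13117 bases apart. PARP9 and DTX3L, the 3 BTN3A genes, PSMB8-AS1 with PSMB9 and TAP1, and DRAM1 with NUP37 made up the rest. The most on any chromosome were the 9 on chromosome 6. Whether this exceeds the clustering of all expressed genes was not tested.

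A RefSeq promoter window (the first listed for a gene) was found for 58 genes among the 80 risen symbols. No match by symbol was found for 21, and WARS and WARS1 share 1 window. GAS was present in 14 (24.1%) and the ISRE core in 21 (36.2%), with 28 (48.3%) holding either. Over the 9350 tested genes with a window these shares were 6.26%, 6.59% and 12.1%, and over all 27305 RefSeq windows 7.88%, 8.29% and 15.2%. Among the 23 risen genes with a log2 fold change of at least 2 and a window, 73.9% held either and 60.9% held the ISRE core, against 31.4% and 20% of the 35 with a smaller fold. Among the genes whose stretches are printed above, IRF1, ICAM1 and IRF9 held GAS without the ISRE core, and IFIT3, IFIT5, TAP1 and DTX3L the reverse.

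No gene met both criteria for a fall. The 5 symbols that were lower at the adjusted p alone were ID1, HIC1, TNKS1BP1, IL11 and TPRG1L. ID1, an inhibitor of basic helix-loop-helix factors and a target of BMP signalling, had 15.8, 14.0 and 19.3 CPM with IFNγ, against 31.9 and 31.2 CPM in NT libraries (-0.95 ± 0.20, adjusted p = 0.00829), and without sgAAVS1_IFNγ replicate 3 its log2 fold of -1.08 met both criteria. HIC1, a transcriptional repressor, had 8.31, 9.89 and 9.83 CPM with IFNγ, against 18.1 and 17.95 CPM in NT libraries (-0.94 ± 0.24). IL11, a cytokine of the interleukin 6 family, had 24.9, 25.8 and 25.8 CPM with IFNγ, against 34.9 and 43.3 CPM in NT libraries (-0.62 ± 0.14). With IL-1β, a comparison that shares the NT libraries, ID1 was at a log2 fold change of -0.63, HIC1 at -1.14, TNKS1BP1 at -0.60, IL11 at -0.47 and TPRG1L at -0.52.

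Just inside the fold threshold lay STAT3 (1.06), NUP37 (1.03) and ERI1 (1.01), and just outside it PARP8 (0.98), DDX23 (0.96) and BCL6 (0.95). NUP37 was not called without any 1 of sgAAVS1_NT replicate 2 (0.69) or the IFNγ libraries (0.99 to 1.12), nor ERI1 without sgAAVS1_NT replicate 3 (0.91), sgAAVS1_IFNγ replicate 2 or replicate 3 (0.98 each). PARP8 and BCL6 met both criteria without sgAAVS1_IFNγ replicate 3, and DDX23 without sgAAVS1_IFNγ replicate 2 or sgAAVS1_NT replicate 3. Other programmes had few or no called genes. None rose or fell among 31 mitosis and DNA replication genes (median -0.08), 17 growth arrest and p53 targets (-0.03), 19 heat shock and ATF4 stress genes (-0.08), 16 AP-1 and immediate-early genes (0.25) or 6 complement genes (-0.15). The 14 housekeeping genes lay between -0.20 and 0.18. Of 33 genes of the IL-1 and NF-κB response only CSF1, the macrophage colony-stimulating factor, rose, with 14.5, 9.15 and 9.22 CPM with IFNγ, against 2.52 and 2.18 CPM in NT libraries (2.21 ± 0.40). Its call was lost without sgAAVS1_NT replicate 3 (2.11). SOD2, a mitochondrial superoxide dismutase, was higher at the adjusted p alone (0.74 ± 0.15).

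The same treatment in sgERH cells gave smaller folds for many of these genes. In sgERH cells 2 symbols rose with IFNγ, IRF1 (2.07 ± 0.12) and GBP3 (1.13 ± 0.15), and 0 fell. Of the 80 symbols risen in sgAAVS1 cells, 71 had a log2 fold change above 0 in sgERH cells. Their median there was 0.41, against 0.007 over all tested symbols. The 80 were chosen by their fold in sgAAVS1 cells, and that choice by itself favours smaller folds in another group. The difference of the 2 responses, tested as an interaction, was called upward (larger in sgAAVS1) for 25 of 13370 symbols (0.187%) and downward for 2. The interaction holds the same sgAAVS1 libraries as the response in sgAAVS1 cells. The 27 calls fell to 16 without sgERH_IFNγ replicate 1, to 17 without sgERH_IFNγ replicate 3 or sgAAVS1_NT replicate 2, and to 5 with sgAAVS1_NT replicate 1 added back. ERH itself, the gene that sgERH targets, was at 601, 562 and 606 CPM with IFNγ and 629 and 643 CPM in NT libraries of sgAAVS1 cells, against 286 and 313 CPM with IFNγ and 323, 264 and 308 CPM without cytokine in sgERH cells.

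IRF1 had 118 and 118 CPM in sgERH cells with IFNγ, against 30.4, 25.6 and 27.9 CPM without, and its response was 3.11 ± 0.18 larger in sgAAVS1 cells on the log2 scale (adjusted p = 3.03e-12). For ICAM1 the sgERH cells had 81.4 and 90.8 CPM with IFNγ, against 45.2, 52.1 and 46.3 CPM without, a difference of 2.79 ± 0.20. In both genes the sgERH libraries without cytokine lay above both sgAAVS1_NT libraries, and those with IFNγ lay below every sgAAVS1_IFNγ library.

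In sgERH cells NLRC5 was at 14.4 and 21.98 CPM with IFNγ, against 6.79, 9.91 and 10.4 CPM without, with a difference between the responses of 2.66 ± 0.35. For APOL2 the levels without cytokine also differed, at 37.8, 35.1 and 27.2 CPM in sgERH cells, and with IFNγ they were 50.7 and 51.8 CPM (difference 2.54 ± 0.24). PARP9 differed by 2.64 ± 0.51, DTX3L by 2.10 ± 0.23 and TMEM158, which had 52.9 and 78.5 CPM with IFNγ and 66.8, 68.8 and 75.3 CPM without in sgERH cells, by 1.48 ± 0.21.

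Of the 10 highest differences BATF2, APOL6 and AC083837.1 had no read in the sgAAVS1_NT libraries, and their fitted differences are no bounds. AC083837.1 had 2.70, 1.49 and 1.43 CPM in sgAAVS1 cells with IFNγ, against 1.66 and 2.00 CPM in sgERH cells with IFNγ, so the levels with cytokine overlapped and the groups that did not overlap were those without cytokine, with 1.22, 1.98 and 3.23 CPM in sgERH cells. Its rise in sgAAVS1 cells, at least 6.37-fold, was lost as a call without either NT library (6.34, no bound). BATF2 was at 1.29 and 0.908 CPM in sgERH cells with IFNγ, below every sgAAVS1_IFNγ library, against 1.22, 1.08 and 1.02 CPM without. Not all risen genes differed by guide. ERAP2, with 29.2 and 29.8 CPM in sgERH cells with IFNγ, against 12.7, 13.3 and 17.5 CPM without, had a difference of 0.69 ± 0.31 (adjusted p = 0.800), and PDCD1LG2 of 0.64 ± 0.45.

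**Figure D4:**
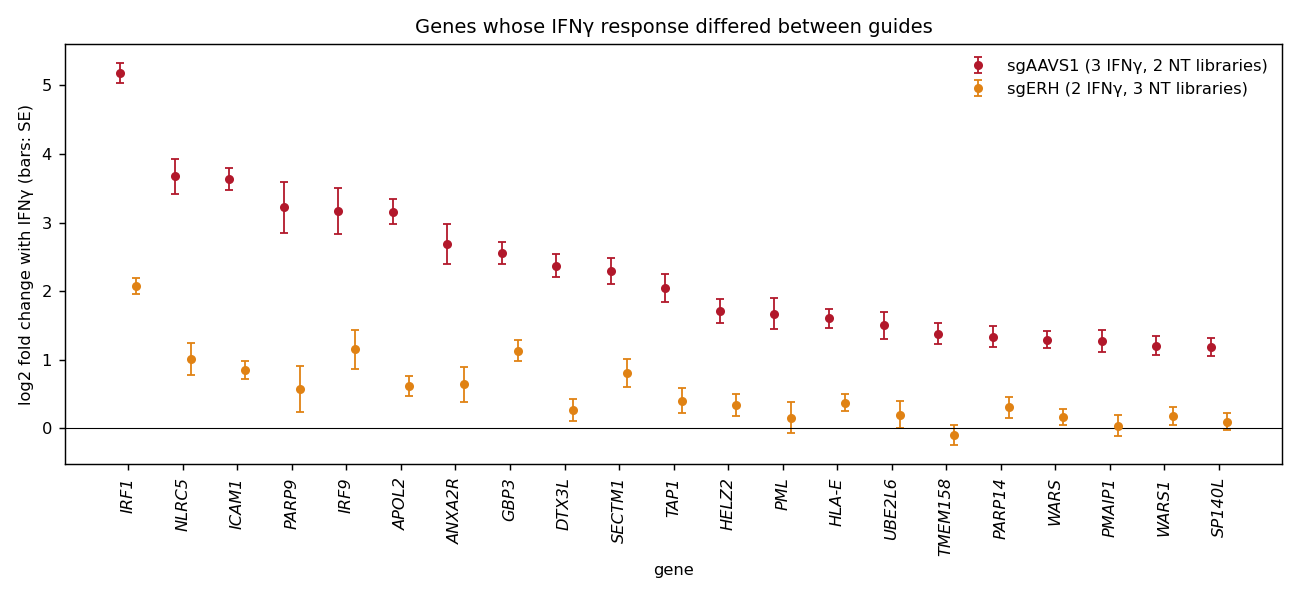
Log2 fold change with IFNγ over NT (± SE) in sgAAVS1 cells and in sgERH cells for 21 genes whose difference between guides was called and that reached 20 CPM with IFNγ. IRF1 was at 5.18 in sgAAVS1 cells and 2.07 in sgERH cells.

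IL-1β, which signals through MyD88 to NF-κB, gave the other cytokine comparison in sgAAVS1 cells. Comparing IFNγ with IL-1β libraries directly, 58 symbols were higher with IFNγ (0.434%) and 27 lower (0.202%). Without sgAAVS1_IL-1β replicate 2 these 85 calls were 54. Of the 80 risen symbols 51 were among the 58, and 29 were called neither way against IL-1β. SOCS1 and SOCS3 were not called higher with IFNγ than with IL-1β. Over NT 7 of the 80 rose with IL-1β too, against 84 of all 13370 symbols. The median log2 fold change of the 80 with IL-1β was 0.48, against -0.02 over all symbols. The 80 were chosen by their rise over the same NT libraries. IRF1 had 27.7 and 33.2 CPM with IL-1β and GBP3 30.1 and 25.8 CPM, so that IFNγ was above IL-1β by 4.76 ± 0.14 for IRF1 and 2.14 ± 0.15 for GBP3 on the log2 scale. With IRF1, the 10 highest were TEX29, ETV7, GBP1, HAPLN3, APOL6, BATF2, NLRC5, PSMB8-AS1 and TRIM69. Of these TEX29 and HAPLN3 were not among the genes risen over NT. HAPLN3 had 6.03, 6.72 and 4.92 CPM with IFNγ, against 0.202 and 0.205 CPM with IL-1β, and was not among the risen genes because its fold over NT was not called (2.44 ± 0.70, adjusted p = 0.121).

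Of the 27 symbols lower with IFNγ than with IL-1β, 16 were on the IL-1 and NF-κB list, which held 33 of the 13370 tested symbols. That list was chosen with earlier results of these data known, so the overlap is no independent result. NFKBIA, the NF-κB inhibitor, had 38.4, 39.0 and 46.5 CPM with IFNγ, against 236 and 247 CPM with IL-1β and 36.3 and 37.5 CPM in NT libraries. The chemokine CXCL1 had 1.25, 0.187 and 0.205 CPM with IFNγ, against 26.8 and 29.1 CPM with IL-1β and 0.420 and 0.363 CPM in NT libraries. CXCL8 had 0.208, 0.747 and 0.410 CPM with IFNγ, against 14.5 and 15.2 CPM with IL-1β. CCL20 and CSF3 had no read with IFNγ, against 1.21 and 3.49 CPM and 1.21 and 2.26 CPM with IL-1β. CXCL2, CXCL3, TRAF1, BIRC3 and TNFAIP3 complete the 10 lowest. IFNGR2 was lower with IFNγ than with IL-1β too, with 70.2 and 81.6 CPM with IL-1β (-1.07 ± 0.17). Over NT its log2 fold change with IFNγ was -0.11 and was not called. Too few reads of IFNGR2 mapped uniquely for a test on those.

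ICAM1 rose with both cytokines. It had 153 and 176 CPM with IL-1β, and the excess with IFNγ (0.75 ± 0.13, adjusted p = 5.43e-04) did not reach the fold threshold. Both comparisons with NT share the sgAAVS1_NT libraries. FBXO5 had 11.7 and 13.9 CPM and LINC02605 4.24 and 5.33 CPM with IL-1β, which for LINC02605 compares with 5.82, 5.23 and 4.51 CPM with IFNγ and 0.630 and 0.544 CPM in NT libraries. The call of LINC02605 was lost without sgAAVS1_NT replicate 3 (3.00).

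**Figure D5:**
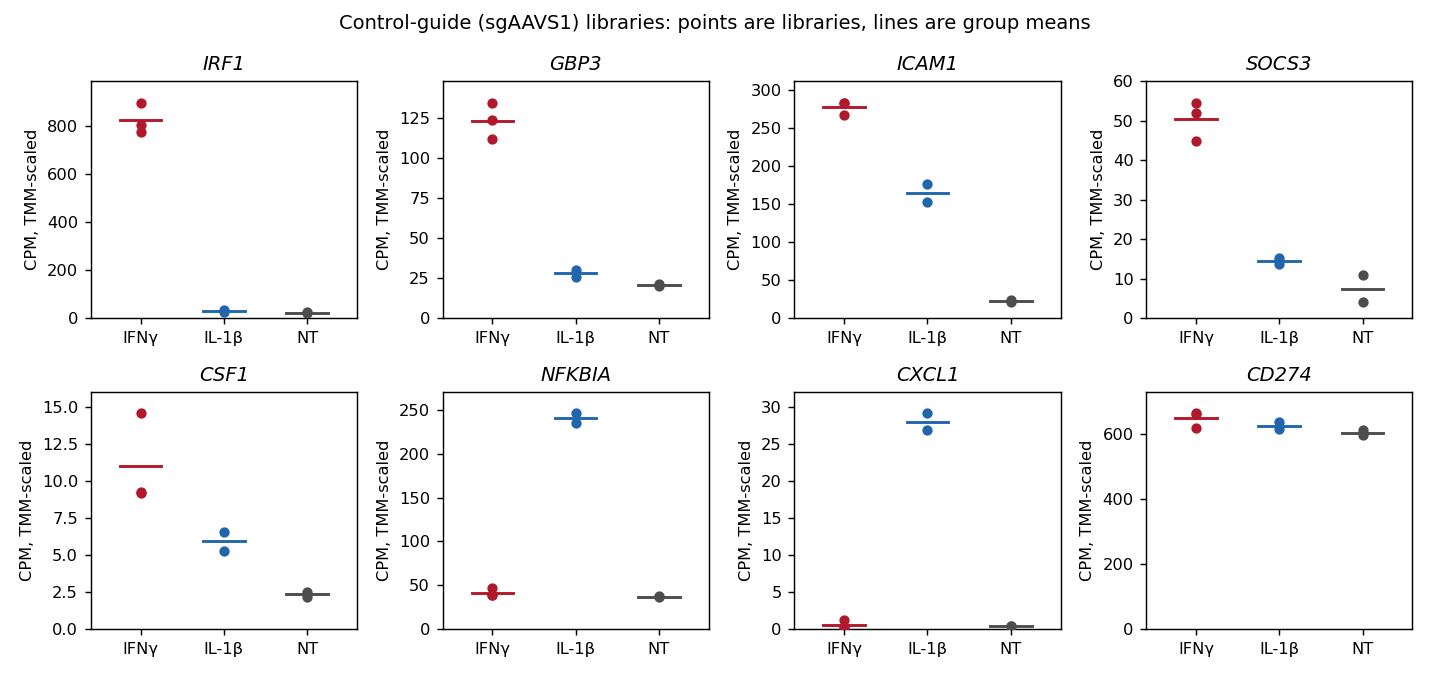
Level in CPM of IRF1, GBP3, ICAM1, SOCS3, CSF1, NFKBIA, CXCL1 and CD274 in each sgAAVS1 library with IFNγ, with IL-1β and without cytokine (NT), with a line at each group's mean. IRF1 and GBP3 were high with IFNγ only, NFKBIA and CXCL1 with IL-1β only, ICAM1 with both, and CD274 lay between 599 and 665 CPM in all 7 libraries.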

How the data were processed

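Whole-number read counts per gene symbol were deposited for each library. Per the sources, the authors sequenced QuantSeq FWD 3′ mRNA libraries, checked reads with FastQC (version 0.11.8), trimmed them with Trim Galore (version 0.6.2), mapped them with SlamDunk (GRCh38), and summed the reads in 3′ end windows by gene symbol. Reads mapping to several places were included and no molecular identifiers were used, so intervals and floors cover counting error only. Strand use in counting is not given in the sources used here.

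From these counts, edgeR 4.0.16 (limma 3.58.1, R 4.3.3) fitted 1 robust quasi-likelihood model with TMM scaling and filterByExpr to the 15 libraries the study kept, in 6 groups. The study's 3 outliers (sgAAVS1_NT replicate 1, sgERH_IFNγ replicate 2, sgAAVS1_IL-1β replicate 3) were left out. P-values were Benjamini-Hochberg adjusted over 13370 symbols, and SE is the log2 fold change divided by the root of its F. The biological coefficient of variation was 12.6%. Of the libraries kept, sgERH_IL-1β replicate 2 stood furthest from its group. Its chi-square for each degree of freedom was 13.8 against replicate 1 and 16.9 against replicate 3. Depth of 4987127 to 5986338 reads puts 3 reads over both NT libraries at 0.292 CPM. Coordinates are from GENCODE 44. The script was tested on simulated data.

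Gene lists and members were chosen with earlier results of these data known. Named genes were the 30 risen with the highest folds, all members or called and near-threshold members of the lists, up to 12 risen genes on no list, the lowest folds at the adjusted p, the 3 on each side of the fold threshold, and the 10 highest and lowest of the other contrasts. ERH, HLA-B, HLA-C, CD274, CXCL16 and some low-fold off-list genes were named after their values were seen. Alternatives were DESeq2 1.42.0 and its size factors, all 18 libraries, sgAAVS1_NT replicate 1 added back, no filter, only the groups compared, a replicate block, uniquely mapping reads, the adjusted p alone and leaving out each library. Some genes that entered the fits and counts are not reported here.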

Additional observations from a re-analysis of the deposited data

Results flagged for a closer look

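The response to IFNγ differed between guides, by the interaction test at an adjusted p of at most 0.05 (edgeR) and a log2 difference of at least 1 in size, for 27 symbols. Each value given is the log2 response of sgAAVS1 cells minus that of sgERH cells. IRF1 (3.11), NLRC5 (2.66) and IRF9 (2.01) were regulators with a difference above 2. ICAM1 (2.79), APOL2 (2.54) and ANXA2R (2.04) were also above 2, as were the partners PARP9 (2.64) and DTX3L (2.10). It was 1.63 for TAP1, 1.51 for PML, 1.49 for SECTM1, 1.48 for TMEM158, 1.43 for GBP3, 1.37 for HELZ2, 1.30 for UBE2L6, 1.23 for PMAIP1, 1.23 for HLA-E, 1.13 for WARS, 1.09 for SP140L, 1.03 for PARP14 and 1.02 for WARS1, which is the same gene as WARS.

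For BATF2 (8.43), APOL6 (7.40) and AC083837.1 (6.56) the sgAAVS1_NT libraries held no read, so these fitted differences depend on the handling of 0 and are no bounds. The difference was negative for MED25 (-1.01) and TNKS1BP1 (-1.02). MED25, a Mediator subunit, had 30.3, 35.1 and 27.6 CPM in sgAAVS1 cells with IFNγ, against 38.2 and 43.2 CPM without, and 47.5 and 44.9 CPM in sgERH cells with IFNγ, against 32.5, 27.2 and 30.3 CPM without. Neither guide's own response of MED25 was called. The negative calls of both genes held with uniquely mapping reads and the replicate block. Both were lost with DESeq2, its size factors, all 18 libraries, sgAAVS1_NT replicate 1 added back, no filter and only the groups compared. Of the 10 fits that left out 1 library, 3 kept 1 of the negative calls and 7 kept neither. The sgERH cells were already at 37.8, 35.1 and 27.2 CPM of APOL2 and 45.2, 52.1 and 46.3 CPM of ICAM1 without cytokine, and what a higher starting level does to the fold was not tested.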

How the results depend on the processing

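The 80 risen symbols kept a log2 fold change above 0 in all 13 alternatives that tested them, the lowest being 0.41 (GCLM, all 18 libraries), and 21 stayed called in each. With all 18 libraries 22 symbols rose, with sgAAVS1_NT replicate 1 added back 45 and at the adjusted p alone 126, while leaving out 1 library gave 56 to 82. With DESeq2 97 rose, with its size factors 81, without a filter 119, with only the groups compared 120 and with uniquely mapping reads 71. Uniquely mapping reads left 6 of the 80 untested. No symbol fell by the stated rule, against 1 without a filter, 1 with the replicate block, 5 at the adjusted p alone and 0 to 3 when leaving out 1 library. The 27 calls of a difference between guides became 3 with all 18 libraries, 5 with sgAAVS1_NT replicate 1 added back and 16 to 23 when leaving out 1 library. The 85 calls between IFNγ and IL-1β became 33 with all 18 libraries, 26 with sgAAVS1_NT replicate 1 added back, 138 at the adjusted p alone and 54 to 79 when leaving out 1 library. Fits without an NT library take the lone one to vary like the other groups. The cause of these changes was not tested.

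The sources do not say whether same-numbered libraries were paired. Their deviations from the group means correlated at -0.06 to 0.14, which cannot exclude pairing in groups of 2 or 3 libraries. With the replicate block 87 symbols rose, 75 of them among the 80, and TAPBPL (1.65), DDX58 (1.41), AC025171.2 (1.38), IGFLR1 (1.15) and ERI1 (1.00) were not called. With the block 23 symbols differed between guides and 95 between the cytokines.

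Some uncalled log2 folds changed sign. With all 18 libraries IFNGR2 was at 0.42, STAT5A 0.15, STAT5B -0.29, PTPN1 0.41, PTPN2 -0.053, IRF7 -0.24, BATF3 -0.40, RFX5 -0.17, RFXAP 0.032 and PSME2 -0.032. With sgAAVS1_NT replicate 1 added back these were IFNGR2 0.41, STAT5A 0.13, STAT5B -0.27, PTPN1 0.41, PTPN2 -0.048, IRF7 -0.22, BATF3 -0.39, RFX5 -0.16, RFXAP 0.015 and PSME2 -0.029. With uniquely mapping reads PTPN2 was at -0.00983. Leaving out 1 library gave -0.21 to 0.011 for IFNGR2, -0.28 to 0.039 for JAK2, -0.62 to 0.25 for STAT5A, -0.53 to 1.21 for STAT5B, -0.090 to 0.11 for STAT6, -0.71 to 0.66 for CISH, -0.032 to 0.13 for PTPN2, -0.23 to 0.33 for PIAS3, -0.16 to 0.27 for PIAS4, -1.26 to 0.26 for USP18, -0.013 to 0.35 for IRF3, -0.14 to 0.22 for IRF5, -0.00996 to 0.86 for IRF7, -0.13 to 0.14 for BATF3 and -0.26 to 0.14 for RFXANK. Folds of genes under 10 CPM are limited by depth.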
